A study of Mus musculus with 4 samples.

Results

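The Hox genes are the 39 genes of the mouse Hoxa, Hoxb, Hoxc and Hoxd clusters, chosen here by symbol from the 32230 gene symbols of the expression table. They were measured on day 2 after the start of reprogramming in fibroblasts from 4F2A mouse embryos, in 2 CX-5461 libraries and 2 DMSO libraries, which are all 4 libraries of the study. 4F2A fibroblasts carry a doxycycline-controlled cassette of the 4 reprogramming factors Oct4, Sox2, Klf4 and Myc. Per the labels they came from male, homozygous, mid-gestation embryos, and all libraries had doxycycline at 2 µg/mL for 48 h. The CX-5461 group received the RNA polymerase I inhibitor CX-5461 for 1 h on day 0, and the DMSO group received the vehicle. The replicates of each group carry the numbers 2 and 3 and are called parallel replicates in the labels, with no word on separate cultures or embryos, so the p-values measure the spread between these libraries, which may be technical. Embryonic fibroblasts are a mixture from several body parts, and the labels do not say which parts were used.

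Hox proteins are homeodomain transcription factors that give cells along the head-to-tail axis, and along the limb, their positional identity. Within a cluster the genes lie in the order in which they are used along the body: paralogs with low numbers act in the hindbrain and neck, the middle ones in the thorax, and those with high numbers in the lumbar and tail region, the ends of the limbs and the genital tract. Trithorax-group proteins keep active Hox genes on, Polycomb-group proteins keep silent ones off, and adult fibroblasts retain the Hox pattern of the place they came from. In mm10 the Hoxa cluster lies on chromosome 6 (11 genes), Hoxb on chromosome 11 at 96194316 to 96368256 (10 genes), Hoxc on chromosome 15 at 102921103 to 103036852 (9 genes) and Hoxd on chromosome 2 at 74668310 to 74765142 (9 genes).

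The clusters also hold microRNA genes, and the miR-196 family is known to restrain Hox messages of the middle of the clusters. These sequences are shown because the precursor gene Mir196a-1 differed between the groups. They are RefSeq mature forms (GRCm38.p6), with the seed, bases 2 to 8, in capitals. All forms of miR-196 share 1 seed and both forms of miR-10 share another.
miR-196a-5p (from Mir196a-1, plus strand, chr11:96265187-96265208): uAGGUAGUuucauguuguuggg
miR-196b-5p (from Mir196b, minus strand, chr6:52230129-52230150): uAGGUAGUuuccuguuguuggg
miR-10a-5p (from Mir10a, plus strand, chr11:96317186-96317208): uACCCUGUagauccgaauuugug
miR-10b-5p (from Mir10b, plus strand, chr2:74726074-74726096): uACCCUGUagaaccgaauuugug

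The DNA letters that pair with the miR-196 seed, ACTACCT, stood on the transcript strand in the annotated 3′UTR of 9 of the 39 Hox genes (23.1%), against 6.12% of 18987 genes with a 3′UTR. The median 3′UTR length was 966 bases for Hox genes and 955 bases for all. They included Hoxa4, Hoxa5, Hoxa7, Hoxa9, Hoxb1, Hoxb6, Hoxb7 and Hoxc8. The letters that pair with the miR-10 seed, ACAGGGT, stood in 4 of 39 (10.3%), among them Hoxa3, Hoxb3 and Hoxd1, against 12.8% of all. A match describes letters and does not show a working site. Windows of 22 bases are given for the matched gene that passed the test, for the gene with the most matches, and for Hoxb8, the textbook target of miR-196, with the stretch opposite the seed in capitals (mm10).
Hoxc8, first match (plus strand, chr15:102992976-102992997): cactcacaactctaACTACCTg
Hoxc8, second match (plus strand, chr15:102993733-102993754): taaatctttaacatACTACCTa
Hoxa7, 1 of 4 matches (minus strand, chr6:52215210-52215231): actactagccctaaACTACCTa
Hoxb8 (plus strand, chr11:96284888-96284909): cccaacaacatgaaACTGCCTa
The Hoxb8 window is complementary to miR-196a at 21 of 22 bases, with 6 of 7 in the seed part, so it holds no full seed match and is not among the 9.

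The deposited values are TPM, each gene's share of all transcripts after division of its reads by gene length, scaled to a library total of 1000000, so levels of different genes can be set side by side. 38 of the 39 Hox genes were above 0 in at least 1 library, and 36 had a mean of at least 1 TPM and were tested. The 36 are all genes past that filter, so their counts describe the expressed Hox genes and not the whole family. Hoxb1, a hindbrain gene, was listed at 0 in all 4 libraries. Hoxb13, the tail and prostate gene, stood at 0 and 0.180 TPM in CX-5461 libraries, against 0.176 and 0.157 TPM in DMSO libraries. Hoxd1 stood at 0.419 and 0 TPM in CX-5461 libraries, against 0.627 and 0.0929 TPM in DMSO libraries. These 3 were not tested.

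Summed over the family, Hox genes reached 552.7 and 546.3 TPM in CX-5461 libraries, against 491.1 and 548.5 TPM in DMSO libraries, so the groups overlapped. By mean TPM over the 4 libraries the order began with Hoxc6 (73.3), Hoxb9 (50.6), Hoxd13 (44.8), Hoxc8 (34.3) and Hoxc5 (27.9). In CX-5461 libraries no neighbours in this order overlapped, and in DMSO libraries Hoxb9 overlapped with Hoxd13 and Hoxc8 with Hoxc5. Hoxc6, Hoxb9 and Hoxc8 belong to the thoracic part of the clusters. Hoxd13, Hoxa10, Hoxa11 and Hoxa13, at 44.8, 20.6, 17.8 and 9.75 TPM on average, belong to the end used in limbs and the genital tract. Both classes were above 0 in every library, and bulk RNA cannot tell fewer cells of a kind from less RNA per cell.

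**Figure D1:**
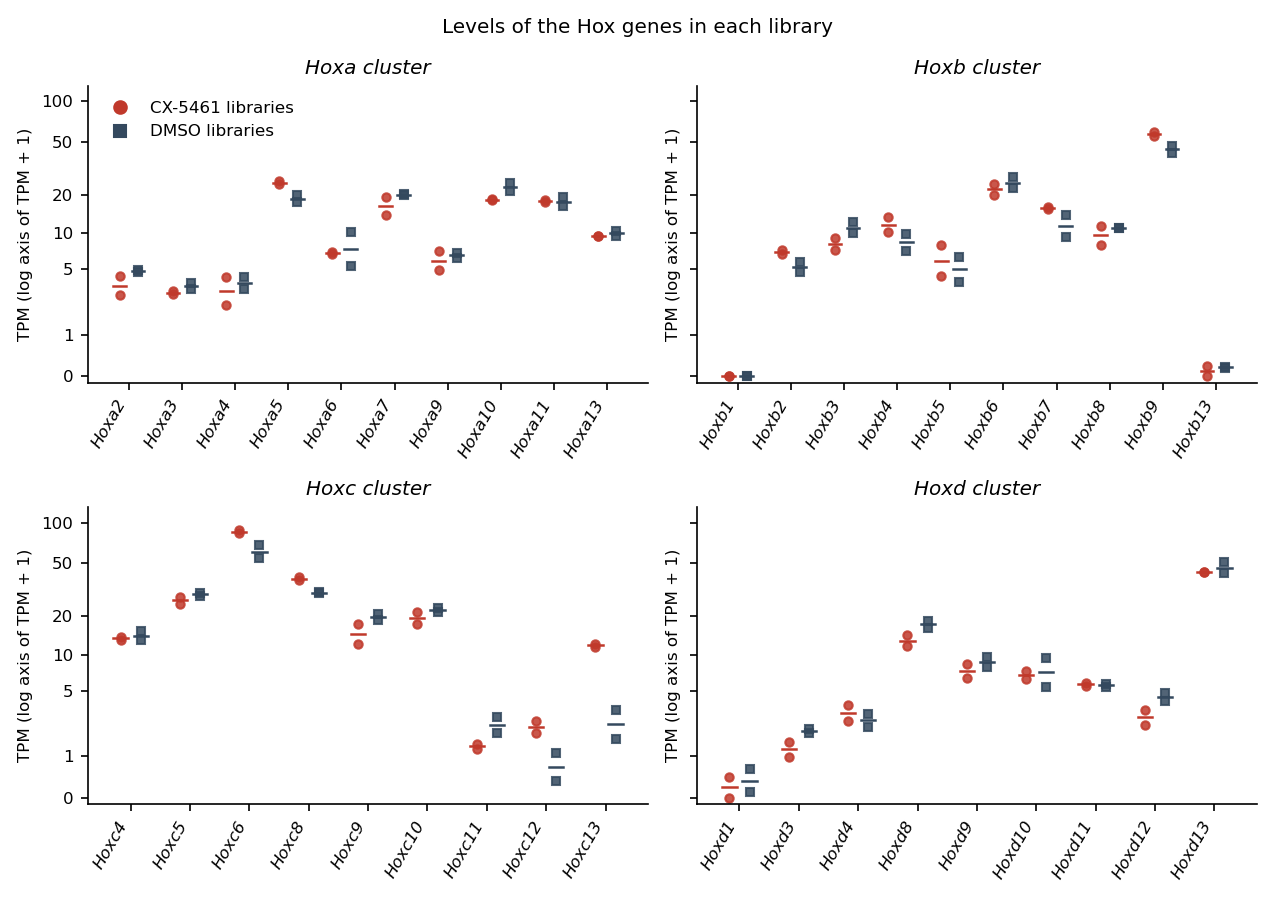
TPM of the Hox genes reported here, in 1 panel per cluster with paralog number rising from left to right, on a log axis of TPM + 1; circles are the 2 CX-5461 libraries, squares the 2 DMSO libraries, and short lines the group means on that log scale. The groups lie close together for most genes, while for Hoxc13 the CX-5461 libraries stand at 11.6 and 12.2 TPM and the DMSO libraries at 1.70 and 3.34 TPM.

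Most Hox genes did not pass the test, and the gene with the largest difference was Hoxc13, at the outer end of the Hoxc cluster. Of the 36 tested Hox genes 3 were higher with CX-5461 (Hoxc13, Hoxc6 and Hoxc8), 0 were lower, and 33 did not pass (limma on log2(TPM + 1), Benjamini-Hochberg adjusted p under 0.05 over 14621 genes). Among all tested genes 11.6% were higher, 8.21% were lower and 19.8% passed in either direction, so 3 of 36 is near the background for higher calls. At an unadjusted p under 0.05, limma gave 6 higher and 2 lower Hox genes. The share of all tested genes at that unadjusted threshold was not counted. The unadjusted counts, here and by cluster below, therefore cannot be set against a background. limma-voom on recovered read numbers gave 3 higher (Hoxc13, Hoxc6 and Hoxb9) and 0 lower. With median-of-ratios scaling only Hoxc13 passed, and the calls over all genes were then 1652 higher and 1655 lower, against 1694 and 1201 as deposited.

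The median log2 difference, CX-5461 minus DMSO, was -0.10 over the Hox genes and 0.07 over all tested genes. 14 Hox genes had a positive and 22 a negative difference, against 8404 positive and 6217 negative over all tested genes. Both CX-5461 libraries lay above both DMSO libraries for 9 Hox genes (38.2% of all tested genes did so) and below them for 12 (26.3% of all), and for 15 the groups overlapped. 33 of the 36 differences were within 0.5 on the log2 scale, as were 76.4% of all, and 35 within 1, and for 31 genes the whole 95% interval lay inside that limit of 1. Across the 39 genes, log2(TPM + 1) of the CX-5461 and DMSO means had a Pearson r of 0.956, and the replicates had 0.978 within CX-5461 and 0.977 within DMSO. These r describe points that share libraries. The median absolute difference was 0.25 between the groups, 0.23 between the CX-5461 libraries and 0.22 between the DMSO libraries. The first is a difference of group means and the others are differences of single libraries, so they are not like for like.

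**Figure D2:**
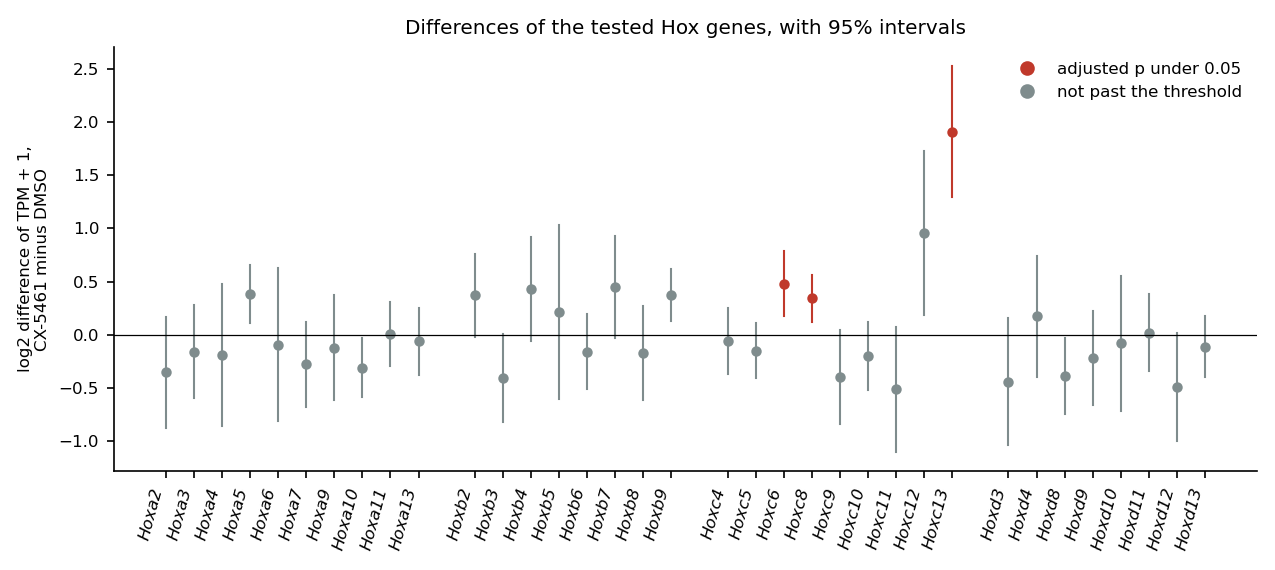
Log2 difference of TPM + 1, CX-5461 minus DMSO, of the tested Hox genes reported here, with 95% intervals from limma, ordered by cluster and paralog number; red marks an adjusted p under 0.05. Hoxc13 stands at 1.91, Hoxc6 at 0.48 and Hoxc8 at 0.34, and Hoxc12 at 0.96 did not pass.

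Hoxc13 is the outermost gene of its cluster (chr15:102921103-102928814, plus strand) and is known as a regulator of hair and nail keratins. It stood at 12.2 and 11.6 TPM in CX-5461 libraries, against 1.70 and 3.34 TPM in DMSO libraries. Both CX-5461 libraries were high and close to each other, and the DMSO libraries were low and differed from each other by more. The means were 11.9 ± 0.386 TPM with CX-5461 and 2.52 ± 1.16 TPM with DMSO (SD, n = 2 each), a ratio of 4.72. The log2 difference was 1.91 (SE 0.25, 95% interval 1.30 to 2.53, adjusted p = 0.00611 by limma), rank 59 of 14621 from the highest. Behind it were 307 and 288 recovered reads in CX-5461 libraries and 43 and 95 in DMSO libraries, where mates of a pair count separately. No 100-base stretch of Hoxc13 transcripts occurred in another gene. With 1 library left out the difference ran from 1.57 to 2.25. The call was lost without CX-5461 replicate 2 (adjusted p = 0.0612) and without CX-5461 replicate 3 (adjusted p = 0.0635), where the lone library is assumed to vary like the other group.

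Next to it in the cluster, Hoxc12 (chr15:102936757-102938609) had 1.98 and 2.60 TPM in CX-5461 libraries, against 1.13 and 0.336 TPM in DMSO libraries. The groups did not overlap, but only 21 and 27 reads with CX-5461 and 12 and 4 with DMSO lay behind these levels. Its log2 difference of 0.96 (SE 0.31) did not pass (adjusted p = 0.0858). Hoxc11 (chr15:102954427-102957708) lay the other way, at 1.28 and 1.47 TPM in CX-5461 libraries, against 1.97 and 2.87 TPM in DMSO libraries (-0.51, adjusted p = 0.186). Between Hoxc12 and Hoxc11 lies Hotair, an antisense RNA described in human cells as a Polycomb guide. Hotair stood at 0 and 0.346 TPM in CX-5461 libraries, against 0 and 0.259 TPM in DMSO libraries, and was not tested.

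Hoxc10 and Hoxc9, the lumbar and lower thoracic genes of the cluster, had lower levels with CX-5461 in both libraries without passing. Hoxc10 had 21.5 and 17.4 TPM in CX-5461 libraries, against 21.7 and 23.1 TPM in DMSO libraries (-0.20, adjusted p = 0.318). Hoxc9 had 17.4 and 12.2 TPM in CX-5461 libraries, against 18.6 and 20.6 TPM in DMSO libraries (-0.40, adjusted p = 0.174). For both genes the CX-5461 replicates were farther apart than the DMSO replicates.

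Hoxc8, which patterns thoracic vertebrae and the motor neurons of the forelimb, stood at 39.4 and 37.5 TPM in CX-5461 libraries, against 29.9 and 30.4 TPM in DMSO libraries. The replicates lay close together in both groups, with means of 38.5 ± 1.28 TPM with CX-5461 and 30.1 ± 0.354 TPM with DMSO (SD, n = 2 each). Its log2 difference was 0.34 (SE 0.09, limma adjusted p = 0.0480). Hoxc6, expressed at brachial and thoracic levels, stood at 83.1 and 87.6 TPM in CX-5461 libraries, against 54.4 and 68.0 TPM in DMSO libraries. Here the DMSO replicates were the ones farther apart, and the means were 85.4 ± 3.21 TPM with CX-5461 and 61.2 ± 9.59 TPM with DMSO (SD, n = 2 each). The log2 difference was 0.48 (SE 0.12, limma adjusted p = 0.0473). Both calls were just inside the threshold. That of Hoxc6 was lost without any library but DMSO replicate 3, with an adjusted p of up to 0.264, and that of Hoxc8 without any single library, up to 0.259. With median-of-ratios scaling the adjusted p was 0.0850 for Hoxc6 (log2 difference 0.42) and 0.0812 for Hoxc8 (0.28). The median of all genes was 0.07 as deposited and 0.01 in that scaling.

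The last Hoxc genes, toward the 3′ end, did not pass. Hoxc5 had 28.0 and 24.8 TPM in CX-5461 libraries, against 28.7 and 30.04 TPM in DMSO libraries (-0.15, adjusted p = 0.352). Hoxc4 had 13.9 and 13.2 TPM in CX-5461 libraries, against 13.1 and 15.4 TPM in DMSO libraries (-0.06, adjusted p = 0.753). Along the Hoxc cluster, then, both CX-5461 libraries lay above both DMSO libraries for Hoxc13, Hoxc12, Hoxc8 and Hoxc6 and below them for Hoxc11, Hoxc10, Hoxc9 and Hoxc5, and the groups overlapped for Hoxc4. Transcripts annotated to Hoxc5 start near Hoxc10 and share 2.31% of their 100-base stretches with it, so reads of these genes may be split.

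In the Hoxa cluster 0 of 11 genes passed with limma in either direction, and at an unadjusted p under 0.05 there were 1 higher (Hoxa5) and 1 lower (Hoxa10). Hoxa5, needed for the lung and the cervicothoracic skeleton, had 25.3 and 24.1 TPM in CX-5461 libraries, against 17.5 and 19.9 TPM in DMSO libraries. It was the only Hoxa gene with both CX-5461 libraries above both DMSO libraries (0.38, SE 0.11, adjusted p = 0.0615). Hoxa10, a uterine and hindlimb gene, had 18.1 and 18.4 TPM in CX-5461 libraries, against 21.3 and 24.5 TPM in DMSO libraries (-0.31, adjusted p = 0.108).

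Among the Hoxa genes of the head and neck, Hoxa2, the selector gene of the pharyngeal arch that forms the hyoid, had 2.88 and 4.39 TPM in CX-5461 libraries, against 4.96 and 4.75 TPM in DMSO libraries. Hoxa3, required for the thymus and parathyroids, had 2.96 and 3.14 TPM in CX-5461 libraries, against 3.74 and 3.31 TPM in DMSO libraries. For Hoxa2 and Hoxa3 the CX-5461 libraries were the lower ones. Of their 100-base stretches, 20.7% for Hoxa3, 10.1% for Hoxa2 and 10.4% for Hoxa4 also occur in other annotated genes of the cluster, so these levels are uncertain. Hoxa4 had 2.32 and 4.24 TPM in CX-5461 libraries, against 4.27 and 3.32 TPM in DMSO libraries. Its groups overlapped, and the log2 differences of these 3 genes ran from -0.36 for Hoxa2 to -0.16 for Hoxa3.

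Further along the cluster, Hoxa6 had 6.74 and 7.09 TPM in CX-5461 libraries, against 5.31 and 10.3 TPM in DMSO libraries. Hoxa7 had 19.1 and 13.8 TPM in CX-5461 libraries, against 19.8 and 20.2 TPM in DMSO libraries. Hoxa9, a regulator of blood stem cells, had 7.23 and 4.90 TPM in CX-5461 libraries, against 6.86 and 6.32 TPM in DMSO libraries. Only for Hoxa7 did the groups stay apart, with CX-5461 lower. Hoxa11, needed for the forearm and the uterus, had 17.5 and 18.1 TPM in CX-5461 libraries, against 19.3 and 16.3 TPM in DMSO libraries. Hoxa13, needed for digits, had 9.54 and 9.47 TPM in CX-5461 libraries, against 9.48 and 10.5 TPM in DMSO libraries. The groups of the 2 limb genes overlapped, and the 95% intervals of their log2 differences were -0.30 to 0.31 for Hoxa11 and -0.38 to 0.25 for Hoxa13. Of the 100-base stretches of Hoxa11, 31.2% also occur in its antisense gene Hoxa11os, and 16.99% of those of Hoxa7 occur in Hoxaas3, so these levels are uncertain.

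In the Hoxb cluster 0 of 8 tested genes passed with limma, with 1 higher (Hoxb9) and 0 lower at an unadjusted p under 0.05, and voom called Hoxb9. Hoxb9, a gene of the thoracic skeleton and the mammary gland, had 55.5 and 59.1 TPM in CX-5461 libraries, against 41.4 and 46.6 TPM in DMSO libraries. Both CX-5461 libraries were higher, by 0.37 on the log2 scale (SE 0.10), and the adjusted p of 0.0507 was just outside the threshold. Hoxc8, at 0.0480, and Hoxb9 were thus the Hox genes nearest to the threshold on either side.

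Hoxb2, a gene of the hindbrain, had 6.76 and 7.27 TPM in CX-5461 libraries, against 4.70 and 5.74 TPM in DMSO libraries (0.37, adjusted p = 0.159). Hoxb4, which expands blood stem cells, had 10.3 and 13.3 TPM in CX-5461 libraries, against 7.20 and 9.89 TPM in DMSO libraries (0.43, adjusted p = 0.181). Hoxb7 had 15.6 and 16.1 TPM in CX-5461 libraries, against 9.26 and 13.9 TPM in DMSO libraries (0.45, adjusted p = 0.158). In all 3 genes the CX-5461 libraries were the higher ones. In TPM, the DMSO replicates were farther apart than the CX-5461 replicates for Hoxb2 and Hoxb7, but not for Hoxb4. Without DMSO replicate 3, Hoxb7 passed, with a log2 difference of 0.72 (adjusted p = 0.0444).

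Hoxb3 lay the other way, with 7.27 and 9.09 TPM in CX-5461 libraries, against 10.01 and 12.3 TPM in DMSO libraries (-0.41, adjusted p = 0.146). It shares 49.7% and Hoxb2 24.5% of its 100-base stretches with the antisense gene Hoxb3os, so both levels are uncertain. Hoxb5, a neural crest gene, had 8.03 and 4.38 TPM in CX-5461 libraries, against 3.88 and 6.39 TPM in DMSO libraries. Hoxb6 had 19.97 and 24.1 TPM in CX-5461 libraries, against 27.1 and 22.4 TPM in DMSO libraries. Hoxb8, a gene of myeloid progenitors and microglia, had 11.4 and 8.08 TPM in CX-5461 libraries, against 11.04 and 10.96 TPM in DMSO libraries. The groups overlapped for Hoxb5, Hoxb6 and Hoxb8.

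In the Hoxd cluster 0 of 8 tested genes passed with limma or voom, with 0 higher and 1 lower (Hoxd8) at an unadjusted p under 0.05. Hoxd13, the digit gene, was the most abundant, at 42.7 and 43.1 TPM in CX-5461 libraries, against 42.2 and 51.3 TPM in DMSO libraries. The groups overlapped, and the log2 difference was -0.11 with a 95% interval of -0.40 to 0.18. Hoxd12 had 2.40 and 3.37 TPM in CX-5461 libraries, against 4.80 and 4.06 TPM in DMSO libraries (-0.49, adjusted p = 0.149). Hoxd11, which acts with Hoxa11 in the forearm, had 5.84 and 5.55 TPM in CX-5461 libraries, against 5.43 and 5.77 TPM in DMSO libraries (0.02, 95% interval -0.34 to 0.38).

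Hoxd10, a lumbar motor neuron gene, had 6.28 and 7.32 TPM in CX-5461 libraries, against 5.45 and 9.51 TPM in DMSO libraries. Hoxd9 had 8.48 and 6.45 TPM in CX-5461 libraries, against 7.97 and 9.64 TPM in DMSO libraries. Hoxd8 had 11.6 and 14.4 TPM in CX-5461 libraries, against 16.2 and 18.5 TPM in DMSO libraries (-0.39, adjusted p = 0.114). Of these 3 only Hoxd8 had groups that did not overlap. Hoxd4 had 2.61 and 3.70 TPM in CX-5461 libraries, against 3.09 and 2.27 TPM in DMSO libraries. Hoxd3 had 1.54 and 0.994 TPM in CX-5461 libraries, against 2.15 and 1.97 TPM in DMSO libraries (-0.44, adjusted p = 0.247). Hoxd3 shares 57.9% and Hoxd4 41.1% of its 100-base stretches with other annotated genes of the cluster, so the levels of this pair are uncertain.

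Cluster by cluster, the summed TPM of Hoxc was 219 and 208 in CX-5461 libraries, against 171 and 194 in DMSO libraries, a ratio of means of 1.17. Hoxb summed to 135 and 142 TPM in CX-5461 libraries, against 115 and 128 TPM in DMSO libraries, a ratio of 1.14. Hoxa summed to 117 and 111 TPM in CX-5461 libraries, against 117 and 123 TPM in DMSO libraries, a ratio of 0.951. Hoxd summed to 82.0 and 84.9 TPM in CX-5461 libraries, against 87.9 and 103 TPM in DMSO libraries, a ratio of 0.874. The Hoxc and Hoxb sums were higher in both CX-5461 libraries, and the Hoxd sum was lower in both. Hoxc supplied 39.5% and 38.2% of all Hox TPM in CX-5461 libraries, against 34.9% and 35.4% in DMSO libraries, and Hoxd 14.8% and 15.5% in CX-5461 libraries, against 17.9% and 18.8% in DMSO libraries. Sums weigh the abundant genes most, and 2 against 2 libraries cannot reach a two-sided exact permutation p below 0.333, so no test was run on them.

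Pooled over the clusters, the differences showed no steady rise or fall with paralog number. Order within a single cluster was not tested, and pooling cannot show runs of neighbouring genes or opposite trends between clusters. Paralog groups 1 to 4 (10 tested genes) had a median log2 difference of -0.11 and 0 calls with limma or voom, also 0 at an unadjusted limma p under 0.05. Groups 5 to 8 (11 tested) had a median of -0.09 and 2 higher calls. Groups 9 to 13 (15 tested) had a median of -0.11 and 1 higher call. Of all tested genes 11.6% were higher, so counts this small do not tell the paralog groups apart. Spearman's rho of paralog number with the difference was 0.01 over the 36 genes and -0.16 without Hoxc12 and Hoxc13, as a description of genes that share libraries.

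**Figure D3:**
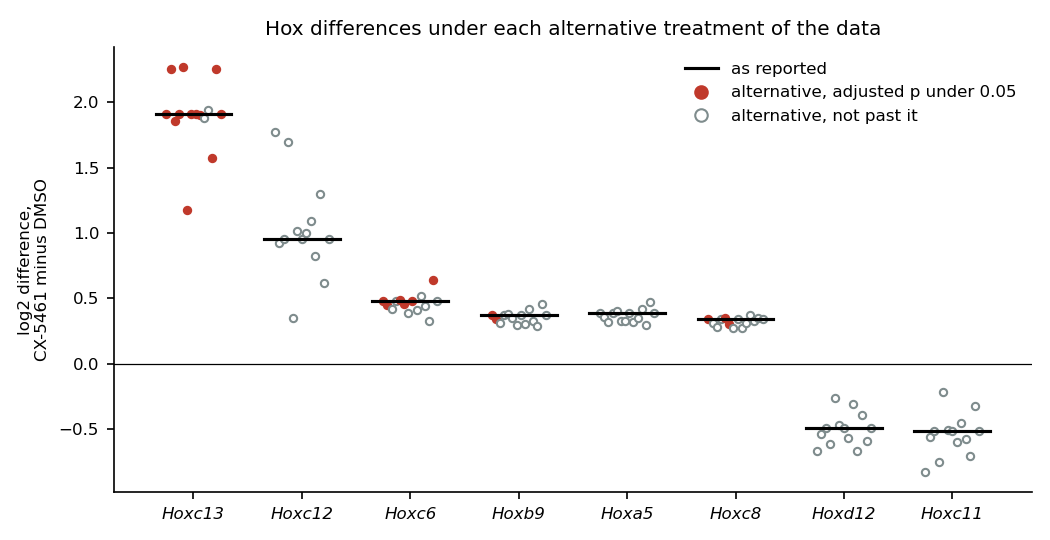
Log2 difference, CX-5461 minus DMSO, of the 6 Hox genes with the smallest adjusted p and of the 2 with the lowest differences (Hoxd12 and Hoxc11), as reported (line) and under each alternative treatment of the data (points; filled where the adjusted p was under 0.05). All points of a gene lie on 1 side of 0, Hoxc13 lost its call only where a CX-5461 library was left out, and Hoxc6 and Hoxc8 lost theirs under several treatments.

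Among the non-coding RNAs of the clusters, 17 of 25 listed were in the table, 9 were tested, 3 were higher (11.6% of all tested genes were) and the other 6 did not pass. The 3 calls are 2 distinct sets of values. Mir196a-1 lies between Hoxb13 and Hoxb9 and had 88.8 and 106 TPM in CX-5461 libraries, against 61.0 and 44.1 TPM in DMSO libraries. The precursor is only 102 bases long, shorter than a read of 150 bases, and 93 and 109 reads with CX-5461 and 64 and 52 with DMSO lay behind these levels. Both CX-5461 libraries were higher, by 0.89 on the log2 scale (SE 0.18, adjusted p = 0.0258), and the mature microRNA was not measured. With voom on reads the adjusted p was 0.0674 (log2 difference 0.865). Mir196b was at 2.29 and 2.92 TPM in CX-5461 libraries, against 2.86 and 1.53 TPM in DMSO libraries, and Mir196a-2 and Mir10a were listed at 0 throughout.

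The 8 tested genes with a miR-196 seed match lay on both sides of 0. Their log2 differences included 0.45 for Hoxb7, 0.38 for Hoxa5, 0.34 for Hoxc8, -0.12 for Hoxa9, -0.16 for Hoxb6, -0.19 for Hoxa4 and -0.28 for Hoxa7. Hoxc8, with its pair of matches, was the only one past the threshold, and Hoxa7, with 4 matches, had the lowest difference. Hoxb8, with its long complementary window, stood at -0.17 (adjusted p = 0.528).

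Hotairm1, an RNA of the 3′ end of the Hoxa cluster described in human myeloid cells, had 9.20 and 6.97 TPM in CX-5461 libraries, against 4.54 and 3.57 TPM in DMSO libraries. The log2 difference was 0.84 (SE 0.19, adjusted p = 0.0345), and with voom the adjusted p was 0.0657 (log2 difference 0.95). The third entry called, Hotairm2, was listed with the same values as Hotairm1 in every library. The nearby Hoxa2 had both CX-5461 libraries below both DMSO libraries without passing. Hottip, an RNA of the far end of Hoxa, stayed at 0.360 to 0.689 TPM and was not tested.

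Hox proteins bind DNA with partners of the TALE class, Pbx, Meis and Prep (gene Pknox). All 9 listed were tested, and 1 was lower (8.21% of all tested genes were) and 8 did not pass, with a median log2 difference of 0.00. Pbx3 had 14.3 and 14.8 TPM in CX-5461 libraries, against 18.8 and 22.0 TPM in DMSO libraries. Both CX-5461 libraries were lower, by -0.46 on the log2 scale (SE 0.12, adjusted p = 0.0486, just inside the threshold). The caudal, even-skipped and ParaHox genes, relatives of Hox genes that include the Hox activators Cdx1, Cdx2 and Cdx4, had a mean under 1 TPM in all 12 cases, so none was tested.

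Of 37 factors that mark limb and body-wall fibroblasts, 34 were tested, 5 were higher and 3 lower, with a median log2 difference of 0.11. These counts are near the shares of all tested genes, 11.6% higher and 8.21% lower, and say nothing about the list as a whole. Tbx18, a factor of somites and the heart lining, had 32.8 and 31.3 TPM in CX-5461 libraries, against 19.2 and 18.2 TPM in DMSO libraries (0.75, adjusted p = 0.00583). Msx2, a homeobox gene of limb buds and skull sutures, had 17.1 and 18.0 TPM in CX-5461 libraries, against 8.25 and 9.94 TPM in DMSO libraries (0.88, adjusted p = 0.00964). Foxf1, a factor of gut and lung mesenchyme, had 7.504 and 8.30 TPM in CX-5461 libraries, against 3.69 and 4.19 TPM in DMSO libraries (0.85, adjusted p = 0.0171). These 3 were higher in both CX-5461 libraries, as were Irx5 and Shox2. Tbx15, a dermal and limb factor, had 78.8 and 80.9 TPM in CX-5461 libraries, against 120 and 116 TPM in DMSO libraries (-0.56, adjusted p = 0.00827), and Twist2 and Prrx1 were lower too. The classical limb-identity genes did not pass. Tbx5 of the forelimb stood at -0.37 on the log2 scale (adjusted p = 0.184), Tbx4 of the hindlimb at -0.34 (adjusted p = 0.0955), and Pitx1 of the hindlimb at 0.19 (adjusted p = 0.348).

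Cells of the face and the front of the head lack Hox expression and use other homeobox genes. Of 21 such genes only 5 had a mean of at least 1 TPM, and Otx2, Nkx2-3 and Nkx2-5 were listed at 0 throughout. Nkx2-9, a ventral midline gene of the neural tube, had 24.0 and 26.5 TPM in CX-5461 libraries, against 2.39 and 1.92 TPM in DMSO libraries (3.06, SE 0.15, adjusted p = 0.000395). It was the only one of the 5 that passed.

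Retinoic acid and GDF11 set Hox domains in the embryo. Of 22 listed genes 19 were tested, 5 were higher and 2 lower, with a median log2 difference of -0.01, where 11.6% of all tested genes were higher and 8.21% lower. Crabp1, which binds retinoic acid in the cytoplasm, had 173 and 166 TPM in CX-5461 libraries, against 476 and 478 TPM in DMSO libraries (-1.49, adjusted p = 0.000443). Aldh1a1, an enzyme that makes retinoic acid, had 12.6 and 12.7 TPM in CX-5461 libraries, against 5.46 and 4.19 TPM in DMSO libraries (1.24, adjusted p = 0.00579). Crabp1 was lower and Aldh1a1 higher in both CX-5461 libraries. The receptor Rxra (0.58, adjusted p = 0.0116), the retinaldehyde reductase Dhrs3 (0.48, adjusted p = 0.0220), the retinoic acid hydroxylase Cyp26b1 and the retinol receptor Stra6 were also higher.

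The chromatin regulators of Hox genes contained more lower than higher calls. Of 25 tested Polycomb genes 4 were lower and 2 higher, with a median of -0.09. Phf19, which recruits the Polycomb methyltransferase, had 0.561 and 0.650 TPM in CX-5461 libraries, against 6.64 and 5.30 TPM in DMSO libraries (-2.11, adjusted p = 0.00279). Ezh2, the methyltransferase itself, had 6.27 and 6.40 TPM in CX-5461 libraries, against 20.7 and 16.4 TPM in DMSO libraries (-1.41, adjusted p = 0.00336). Rbbp7 and Cbx2 were lower too, while Eed and Rnf2 were higher, so members of the same complexes differed in both directions. Of 19 tested Trithorax and MOZ genes 3 were lower and 16 did not pass, with a median of 0.03: Psip1 (-0.71, adjusted p = 0.00554), Dpy30 (-0.92, adjusted p = 0.00982) and Men1 (-0.61, adjusted p = 0.00994). Of 9 CTCF and cohesin genes, which bound the domains of Hox clusters, 3 were lower and 6 did not pass, with a median of -0.26: Rad21 (-0.68, adjusted p = 0.00612), Smc1a (-0.40, adjusted p = 0.0235) and Smc3 (-0.49, adjusted p = 0.0249). Of all tested genes 8.21% were lower and 11.6% higher.

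**Figure D4:**
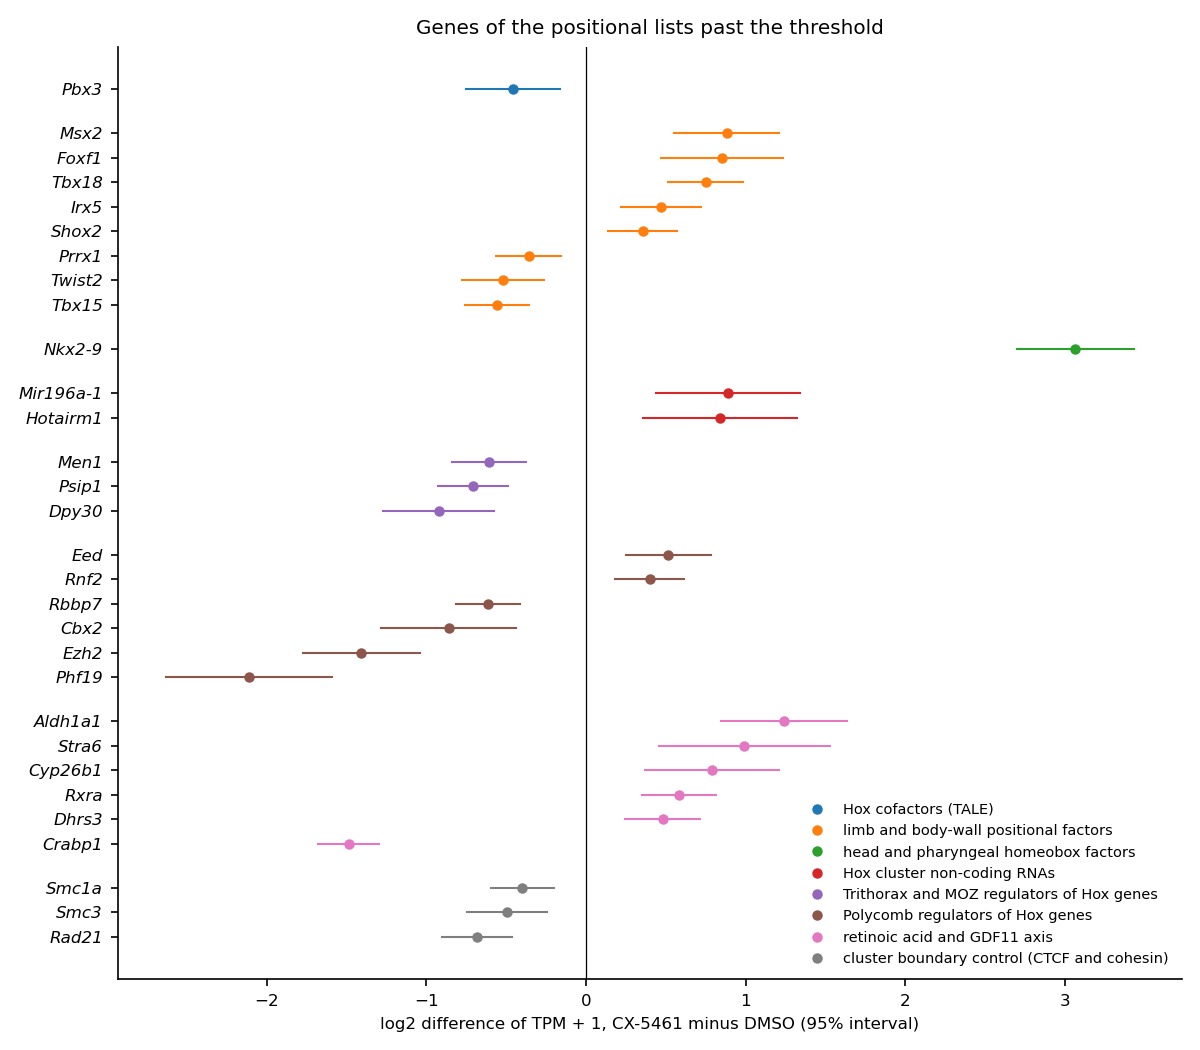
Log2 difference of TPM + 1, CX-5461 minus DMSO, with 95% intervals, of the reported genes past the threshold in the lists of Hox partners, positional factors, cluster RNAs and regulators; Hotairm2 repeats Hotairm1 and is not drawn. Nkx2-9 stands highest at 3.06 and Phf19 lowest at -2.11.

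Of the called genes in these lists, Nkx2-9, Crabp1, Ezh2 and Phf19 kept their call whichever library was left out. All the others lost it without CX-5461 replicate 2 and also without CX-5461 replicate 3, with a highest adjusted p per gene between 0.0670 (Aldh1a1) and 0.241 (Prrx1).

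The protein-coding genes next to the clusters, 3 on each side of each, gave 24 neighbours, of which 19 were tested, 1 was higher and 4 lower, with a median log2 difference of 0.03, where 11.6% of all tested genes were higher and 8.21% lower. Beside Hoxc13 lies Calcoco1, with 43.6 and 44.7 TPM in CX-5461 libraries, against 36.6 and 36.3 TPM in DMSO libraries (0.27, adjusted p = 0.0788). On the other side of Hoxc, Cbx5, a heterochromatin protein, had 44.6 and 45.4 TPM in CX-5461 libraries, against 91.5 and 82.4 TPM in DMSO libraries (-0.93, adjusted p = 0.00274). Hnrnpa1, a splicing factor, had 256 and 231 TPM in CX-5461 libraries, against 459 and 431 TPM in DMSO libraries (-0.87, adjusted p = 0.00323). The genes that flank Hoxc thus lay on both sides of 0, as did the genes inside it. Cbx3 near Hoxa (-0.64) and Hnrnpa3 near Hoxd (-0.34) were lower, and Snx11 near Hoxb (0.64) was higher. None of the called neighbours borders its cluster, since other protein-coding neighbours lie between. The genes that do border the clusters did not pass or were not tested.

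The libraries held between 36486543 and 39694272 recovered reads. DMSO replicate 3 stood apart in its mitochondrially encoded share, 15.3%, against 9.96% in the other DMSO library and 9.20% and 9.24% in CX-5461 libraries. With TPM rescaled without those genes and the 20 highest, Hoxc13 still differed by 1.90. The labelled cell type expressed its markers. The fibroblast list summed to 8734 and 8454 TPM in CX-5461 libraries, against 12110 and 9858 TPM in DMSO libraries, and 5 of 9 were lower (Lum, Pdgfra, Dcn, Thy1 and Col3a1) and 4 did not pass. For this and the following marker lists, the shares of all tested genes were 8.21% lower and 11.6% higher. Endothelial markers summed to 58.3 and 57.2 TPM in CX-5461 libraries, against 50.99 and 50.6 TPM in DMSO libraries, with Kdr higher (23.8 and 24.1 TPM with CX-5461, 6.16 and 6.42 TPM with DMSO; log2 difference 1.78, adjusted p = 0.000729), Tek lower (-0.39, adjusted p = 0.0299), and Pecam1 and Cdh5 at or under 0.324 TPM in every library. Leukocyte markers summed to 65.4 and 81.8 TPM in CX-5461 libraries, against 51.2 and 66.9 TPM in DMSO libraries, with Adgre1 higher (10.4 and 8.98 TPM with CX-5461, 4.48 and 4.99 TPM with DMSO; log2 difference 0.90, adjusted p = 0.0137) and Cd3e at 0. Keratinocyte markers summed to 118 and 142 TPM in CX-5461 libraries, against 112 and 107 TPM in DMSO libraries, with 1 of 4 tested higher (Itga6) and Trp63 at or under 0.206 TPM. Most of the sum was Itga6 (99.6 and 113 TPM with CX-5461, 81.1 and 74.8 TPM with DMSO). Krt14 lay the other way, at 10.8 and 18.5 TPM with CX-5461, against 26.4 and 26.9 TPM with DMSO (-0.87, limma adjusted p = 0.0641). Krt5 (0.57) and Krt10 (0.52) lay above 0 without passing. Muscle markers summed to 33.4 and 33.2 TPM in CX-5461 libraries, against 24.1 and 20.5 TPM in DMSO libraries, almost all of it Des, with Myod1 and Myog at 0. The 1 tested gene of this list was higher (log2 difference 0.57). Neural markers (4 tested, 250 and 269 TPM with CX-5461, 281 and 275 TPM with DMSO) and cartilage markers (1 tested, 10.8 and 9.16, against 10.9 and 10.7 TPM) held no called gene. Pluripotency markers (0.148 and 0.183 TPM with CX-5461, against 0.773 and 0.482 TPM with DMSO) were all under the filter, so none was tested. The part of these shifts in the Hox differences was not tested.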

How the data were processed

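Polyadenylated RNA of 4 libraries was sequenced as paired reads of 150 bases, per the labels. The authors deposited TPM values, and each library's column summed to 1000000. Per the submitters' processing notes the build was mm10. No source used here names the aligner, the counter, the strand setting or the gene lengths. TPM values are shares, so a gain of abundant genes lowers all others.

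The 14621 genes whose mean reached 1 TPM entered limma 3.58.1 (R 4.3.3) as log2(TPM + 1), CX-5461 against DMSO without a covariate, with eBayes in its trend and robust form, Benjamini-Hochberg adjustment and a threshold of 0.05. The fit had 2 residual and 3.75 prior degrees of freedom. Fold changes on this scale understate changes of low genes. Read numbers were recovered as TPM times GENCODE M21 exon length (30143 symbols matched, 505 through a synonym); of 71482 values under 10000 reads, 69.1% were whole to within 0.01. They served limma's voom as an alternative and the counts of reads behind a level. The recovery assumed that the mates of a pair count as separate reads, so fewer independent fragments lay behind each level. The chi-square per degree of freedom between replicates was 9.63 for CX-5461 and 38.3 for DMSO, so no library was a copy of another.

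Same-numbered libraries were not paired by the labels. The Hox genes, the gene lists and the rule for named genes (the Hox genes, and up to 4 called members per list, or those behind counts of 5 or fewer) were chosen with earlier results of these data known. Genes that fall under the rule but are not reported here stay in the counts. Calcoco1, Tbx4, Tbx5 and Pitx1 were named after their values were seen. Shared sequence was searched as 100-base stretches of GENCODE M21 transcripts. The procedure was tested on simulated data. Python 3.11.15, pandas 2.3.3, numpy 2.4.6 and matplotlib 3.10.9 were used.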

Additional observations from a re-analysis of the deposited data

How the results depend on the processing

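Hox genes called lower stayed at 0 under every alternative. Hox genes called higher, 3 as reported, numbered 4 with a filter of 5 TPM, 3 with voom and with either other pseudocount, and 1 with quantile normalization, median-of-ratios scaling, no filter on low values, limma without trend and robust options, or TPM rescaled after removal of mitochondrially encoded genes and the 20 highest, and 0 to 3 with 1 library left out. Of 495 Hox values under alternatives, 471 kept direction and call, 21 (3 genes) lost the call, 3 (2 genes, Hoxb7 and Hoxb9) gained it and 0 reversed a called gene; the sign was the same for 23 of 36 genes in every alternative that gave the gene a value (14, or 13 for genes under the 5 TPM filter). All genes called higher, 1694 as reported, numbered 1051 without a filter, 1128 without trend and robust options and 237 to 2047 with 1 library left out. All genes called lower, 1201 as reported, numbered 2041 with voom and 364 to 891 with 1 library left out. In the positional lists 32 genes were called as reported, 19 without a filter, 18 without trend and robust options and 4 to 24 with 1 library left out. The 32 include Hotairm2, which repeats the values of Hotairm1. Same-numbered libraries did not deviate together (correlation 0.03). With 2 libraries a group each gene gives only 1 difference per group, so this cannot exclude a shared culture, embryo or day. With the replicate block 2 Hox genes called higher, 1589 genes higher and 1100 lower, and 29 genes of the positional lists passed. Precision is limited by 2 libraries a group, and for genes such as Hoxc12 by read numbers under 30.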
